A study of Mus musculus with 42 samples.

Results

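The MYC, MAX and MXD network is described here from RNA sequencing counts in mouse tissues with altered p53. It was taken as 10 listed genes, Myc, Mycn, Mycl, Max, Mxd1, Mxd3, Mxd4, Mxi1, Mnt and Mga, and all 10 were found among the 49585 genes of the count table. The genes were chosen by family membership, and no threshold on a measured value was used, but the list was drawn up with fold changes and levels from these same counts already known, so the calls below describe these samples and are not independent evidence. The series has 42 libraries in 13 groups and asks how tissues of mice with mutant p53 differ from those of p53-null mice, with and without irradiation. In Het mice (p53 +/-) 1 wild-type p53 allele remained. AD mice (p53 AD/-) and RP mice (p53 RP/-) carried the mutant allele after which they are named beside a p53 null allele, and the labels do not spell out either amino acid change. Null mice had no functional p53 allele. All mice were of a mixed BALB/C and C57BL6 background, carried the alterations in the germline and so in every cell type, and were 4 weeks old. Irradiated thymus was taken 4 h after exposure from 4 mice each of Het, AD, RP and Null. Basal thymus came from unirradiated mice, 3 Het, 3 AD and 2 Null. Basal intestine, liver and pancreas came from 3 AD and 3 Null mice each, and these mice also gave basal thymus, apart from 1 Null mouse. Libraries are written as genotype and mouse, such as Het-631.

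MYC, MYCN and MYCL are transcription factors that bind E-box DNA (CACGTG) only as partners of MAX, and in that pairing they raise the expression of genes for ribosome biogenesis, nucleotide synthesis and cell growth. MXD1, MXD3, MXD4 and MXI1 compete for the same partner and the same sites and recruit the SIN3 histone deacetylase corepressor, and MNT is a broadly expressed member with the same repressive role. MGA, a very large protein, also pairs with MAX and belongs to a Polycomb complex, PRC1.6. In developing thymocytes Myc accompanies the proliferative burst that follows rearrangement of the T cell receptor beta chain, and MXD proteins are best known in cells that stop dividing and differentiate. p53 has long been known to lower Myc expression in several cell types.

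Libraries held 19861977 to 34772519 counts, with pancreas the lowest and 50.2 to 53.5% of its counts in the 10 most abundant genes. Trp53, the targeted gene, read 29.9 to 32.5 CPM (counts scaled to a common library size) in irradiated Het thymus, 32.8 to 38.5 CPM in AD and 32.3 to 35.6 CPM in RP, against 18.8 to 21.03 CPM in Null. The Null transcript was thus reduced and not absent, and the labels do not say which part of the gene is missing. Thymocyte markers (Cd3e, Cd4, Cd8a, Rag1, Dntt, Ptcra) summed to 5720 CPM or more in every thymus library and to at most 35.7 CPM in the other tissues. The irradiated library Het-631 stood apart from the other 3 of its group in several genes, with summed cycling-cell markers of 4300 CPM against 2610 to 3050 CPM, and the irradiated library Null-604 had the highest Myc of the thymus libraries. Acinar markers of the pancreas summed to 67700 CPM in intestine AD-702 and 35600 CPM in intestine Null-923, against 460 to 7630 CPM in the other 4 intestines, and to 758 CPM in liver AD-702, against 23 to 48.2 CPM in the other 5 livers. For several results that rest on 1 of these libraries the value without it is given, but not for all. The labels do not say that libraries of a group came from separate experiments, and p-values measure only the spread among these mice.

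In irradiated thymus, Myc was lower in Het than in Null, and Mxd1, Mxd4 and Mxi1 were higher. With the low-level gene Mycn, 5 of the 10 genes passed the edgeR test (Benjamini-Hochberg adjusted p under 0.05, called the edgeR adjusted p below), 4 of them higher and 1 lower. Among all 22206 genes tested, 19.2% passed, 9.79% higher and 9.38% lower. Max, Mxd3, Mycl, Mnt and Mga did not pass.

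Myc (chromosome 15, 61985391 to 61990374 on GRCm38, plus strand) encodes the family member that dividing thymocytes use. It read 21.2, 18.5, 17.5 and 22.2 CPM in the irradiated Het libraries Het-594, Het-595, Het-603 and Het-631. In the irradiated Null libraries Null-593, Null-604, Null-856 and Null-857 it read 41.3, 72.7, 37.7 and 40 CPM. No Het library reached the lowest Null library, and Null-604 stood well above the other 3 Null libraries. The group means were 19.9 ± 2.24 CPM in Het and 47.9 ± 16.6 CPM in Null (SD, n = 4 each). The log2 fold change of Het over Null was -1.27 ± 0.174 (SE), with an edgeR adjusted p of 8.02e-05. Without Null-604, Myc had a log2 fold change of -0.998 ± 0.103 (edgeR adjusted p = 2.32e-06), with Null-604 moving the size of the difference and not its call. In bulk tissue, fewer cells that express a gene and less RNA per cell cannot be told apart.

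**Figure D1:**
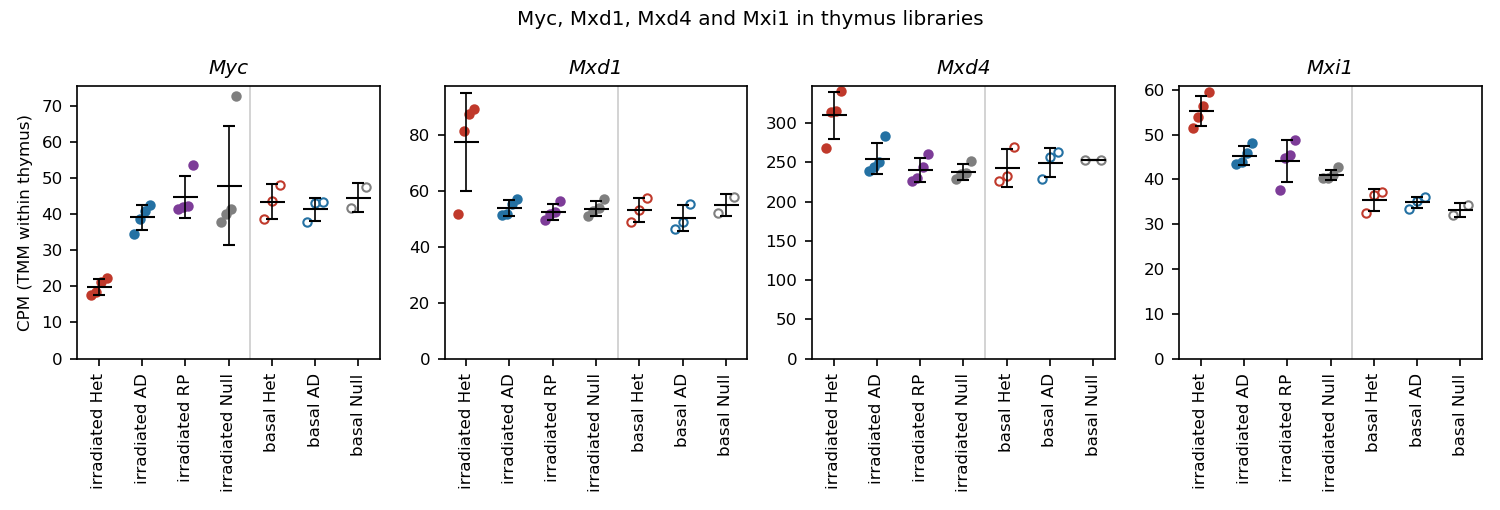
CPM of Myc, Mxd1, Mxd4 and Mxi1 (y axes, each from 0) in every thymus library, by group (x axis). Filled points are irradiated and open points basal libraries, and bars give the mean and SD. Irradiated Het is the lowest group for Myc, 17.5 to 22.2 CPM, and has the highest mean of the 3 repressors, with Het-631 at the level of the other groups for Mxd1.

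Mxd1, Mxd4 and Mxi1 encode repressors that compete with MYC for MAX. Mxd1 is on chromosome 6 (86647042 to 86669161, minus strand), Mxd4 on chromosome 5 (34173883 to 34187720, minus strand) and Mxi1 on chromosome 19 (53310518 to 53375810, plus strand). Exons of Mxd4, Mxd3 and Mxi1 overlap those of Gm42846, Prelid1 and Gm10197 in the annotation, and the labels do not say whether counting used strand, so shared reads cannot be told apart. The 250 bases before the RefSeq start of each (GRCm38.p6, written 5′ to 3′ on the gene's strand) are shown because these 3 genes were higher together in irradiated Het thymus. Capitals mark the palindromic E-box CACGTG, to which MAX complexes bind.
Mxd1 chr6:86669160-86669409 (-): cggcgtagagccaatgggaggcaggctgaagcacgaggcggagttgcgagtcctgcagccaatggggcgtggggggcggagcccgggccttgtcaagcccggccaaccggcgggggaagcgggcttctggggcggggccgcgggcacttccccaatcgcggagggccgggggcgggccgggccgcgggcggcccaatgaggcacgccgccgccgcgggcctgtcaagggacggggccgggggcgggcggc
Mxd4 chr5:34187711-34187960 (-): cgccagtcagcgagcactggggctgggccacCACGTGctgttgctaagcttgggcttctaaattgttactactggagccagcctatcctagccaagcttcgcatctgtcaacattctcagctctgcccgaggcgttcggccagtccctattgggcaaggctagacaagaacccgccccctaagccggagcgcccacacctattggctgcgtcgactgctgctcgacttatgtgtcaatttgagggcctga
Mxi1 chr19:53310256-53310505 (+): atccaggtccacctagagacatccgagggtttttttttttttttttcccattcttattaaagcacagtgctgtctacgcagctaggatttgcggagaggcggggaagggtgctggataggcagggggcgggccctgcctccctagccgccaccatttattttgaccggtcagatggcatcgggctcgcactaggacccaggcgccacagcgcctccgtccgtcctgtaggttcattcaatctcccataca
The letters CACGTG were found once in the Mxd4 window, with the first base at position -219 from the start, and not in the windows of Mxd1 and Mxi1 shown. RefSeq promoter windows were available for 9 of the 10 genes, with 3 windows for Mxi1, and 2 of these 11 windows held CACGTG, those of Mxd4 and Mnt. Among all 32851 promoter windows of the same length, 6.02% held CACGTG and 7.13% held a decamer that fits the p53 consensus half-site, which among the network's windows was present only in that of Mycl. These matches are letters in a short window and say nothing of binding.

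Mxi1 read 59.4, 56.3, 53.8 and 51.5 CPM in irradiated Het, against 40.3, 42.7, 40.3 and 40.9 CPM in irradiated Null, with libraries in the same order as for Myc. Every Het library was above every Null library, and the log2 fold change was 0.43 ± 0.0714 (edgeR adjusted p = 0.000318). Mxd4 read 315.1, 341.1, 314.7 and 268.2 CPM in Het, against 228.3, 236.2, 235.1 and 252.0 CPM in Null. These groups did not overlap either, and the log2 fold change was 0.38 ± 0.0731 (edgeR adjusted p = 0.00107). Ranges of Het and Null were apart in this way for 3 of the 10 genes (Myc, Mxd4 and Mxi1) and for 18.7% of all genes tested.

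Mxd1 split the Het group. It read 87.6, 81.4 and 89.4 CPM in Het-594, Het-595 and Het-603 and 51.7 CPM in Het-631, against 50.9, 53.9, 52.8 and 57.2 CPM in Null. Thus 3 Het libraries lay far above Null, while Het-631 lay within the Null range. The log2 fold change was 0.53 ± 0.12 (edgeR adjusted p = 0.00422). Without Het-631, Mxd1 had a log2 fold change of 0.686 ± 0.0627 (edgeR adjusted p = 1.77e-07). Myc in Het-631, at 22.2 CPM, was as low as in the other Het libraries.

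Mycn, the family member best known in neural tissue, was close to the lower limit of these counts. It read 2.39, 1.71, 2.26 and 3.47 CPM in irradiated Het, against 1.44, 0.927, 1.5 and 2.02 CPM in Null, and the groups overlapped. Its log2 fold change of 0.73 ± 0.228 (edgeR adjusted p = 0.0298) was lost without Het-631 (0.527, edgeR adjusted p = 0.0895), without Null-604 (0.567, edgeR adjusted p = 0.0904), without Null-593 (0.7246, edgeR adjusted p = 0.0602), without Null-856 (0.7444, edgeR adjusted p = 0.0569) and with only these 2 groups in the fit (0.7465, edgeR adjusted p = 0.122). Mycl, known for its role in dendritic cells and in small cell lung cancer, was also low, at 4.75, 3.70, 4.74 and 1.90 CPM in Het, against 4.01, 5.70, 4.92 and 5.37 CPM in Null (log2 fold change -0.40 ± 0.212, edgeR adjusted p = 0.215). The low Het value belonged to Het-631, and without it Mycl was at -0.181 ± 0.154 (edgeR adjusted p = 0.438).

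Max, the obligate partner of the whole network, had a log2 fold change of -0.02 ± 0.0659 (edgeR adjusted p = 0.892), with 45.6 to 55.0 CPM in Het and 49.8 to 56.0 CPM in Null. Mxd3, the repressor known from cycling cells in S phase, had -0.03 ± 0.0893 (edgeR adjusted p = 0.876). In Mxd3 the library Het-631 was high, at 79.1 CPM, against 53.03 to 61.9 CPM in the other Het libraries and 61.3 to 67.1 CPM in Null. Mnt had 0.03 ± 0.0813 (edgeR adjusted p = 0.834) and Mga -0.07 ± 0.0471 (edgeR adjusted p = 0.329). Mnt lies on the same chromosome as Trp53, 5.25 Mb away.

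**Figure D2:**
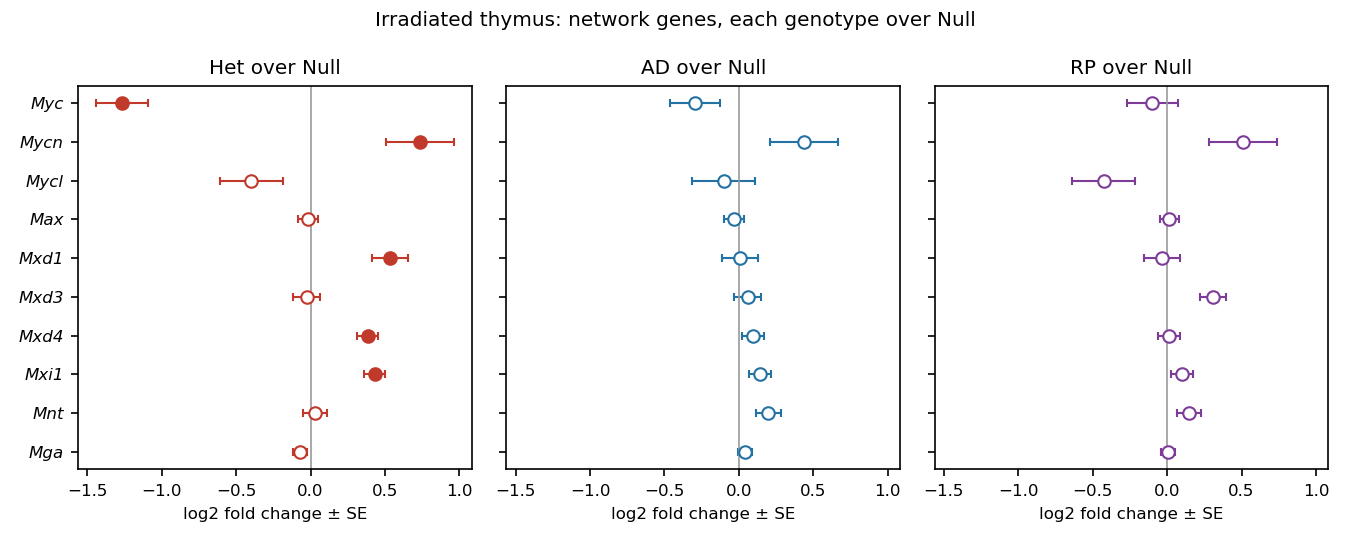
Log2 fold change with SE (x axis) of the 10 network genes (y axis) for Het, AD and RP over Null in irradiated thymus, n = 4 per group. Filled points passed the edgeR test. In Het, Myc lies at -1.27 and Mycn, Mxd1, Mxd4 and Mxi1 lie above 0, and none of the 10 passed in AD or RP.

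Per kb of exon, the order of levels in irradiated Null thymus was Mxd4 (28.0 CPM per kb), Mxd3 (27.5), Mga (22.1), Myc (17.6), Max (14.6), Mxd1 (7.59), Mxi1 (6.02), Mnt (4.23), Mycl (1.24) and Mycn (0.447). The ranges over libraries overlapped between Mxd4 and Mxd3, between Mga and Myc and between Myc and Max, and no other neighbours overlapped. In irradiated Het thymus Myc fell to 7.31 CPM per kb and stood behind Max (14.4), Mxd1 (10.96) and Mxi1 (8.10), and its range overlapped with those of Mxi1 and Mxd1. Myc took 5.58% (5.03 to 6.42) of the network's CPM per kb in irradiated Het libraries, against 13.5% (11.1 to 19.3) in irradiated Null libraries. These shares are taken within a library and do not depend on how libraries were scaled.

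Cell-type markers were also read in the same groups. Of all genes tested there, 9.79% were called higher and 9.38% lower, so a count of 1 of 6 is near the background. Summed markers of thymic epithelium were 1070 to 1270 CPM in irradiated Het thymus and 683 to 773 CPM in Null, with 3 of the 6 markers called higher. Cycling-cell markers were 2610 to 4300 CPM in Het and 3540 to 3790 CPM in Null, with 2 of 6 called lower, with Het-631 the highest. Thymocyte markers were 9390, 9010, 8390 and, in Het-631, 7040 CPM in Het, against 5720 to 7440 CPM in Null, with 2 of 6 called higher. Macrophage markers were 470, 390, 439 and, in Het-631, 241 CPM in Het, against 260 to 347 CPM in Null, with 1 of 6 called higher. Markers of B and plasma cells were 161, 126, 153 and, in Het-631, 67.4 CPM in Het, against 99.2 to 148 CPM in Null, with 1 of 6 called higher. For thymocytes and macrophages, as for Mxd1, 3 Het libraries lay above all Null libraries and Het-631 did not. No marker of the epithelial, cycling and macrophage lists was at 0 in either group. Thymic epithelial markers were at 1070 CPM in Het-631, above every Null library. The part of these cells in the network's values was not tested.

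Neither mutant differed from Null in a network gene by this test. Of the 10 genes, 0 passed for AD over Null, where 0.027% of all genes passed, and 0 passed for RP over Null, where 0.0315% passed. DESeq2 also called 0 of the 10 in both. Het, AD and RP are set against the same 4 Null libraries, so these comparisons share their spread.

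Myc read 38.6, 34.4, 42.6 and 40.8 CPM in irradiated AD (AD-630, AD-633, AD-726, AD-727) and 41.5, 53.6, 42.2 and 42.1 CPM in irradiated RP (RP-649, RP-653, RP-654, RP-656), within or near the 37.7 to 72.7 CPM of Null. Its log2 fold change was -0.29 ± 0.169 for AD over Null (edgeR adjusted p = 0.704) and -0.10 ± 0.169 for RP over Null (edgeR adjusted p = 0.998). Both values rest on Null-604: without it Myc was at -0.023 ± 0.102 for AD over Null (edgeR adjusted p = 1) and at 0.172 ± 0.102 for RP over Null (edgeR adjusted p = 0.836), so that the direction for RP turned. Mxd1 (51.3 to 57.1 CPM in AD, 49.6 to 56.5 CPM in RP) and Mxd4 (239.4 to 282.9 CPM in AD, 226.8 to 260.2 CPM in RP) overlapped with Null in both mutants. Mxi1 was the 1 gene with ranges apart for AD over Null, at 43.4, 43.9, 48.1 and 45.8 CPM in AD and 40.3 to 42.7 CPM in Null (0.14 ± 0.0714, edgeR adjusted p = 0.654), and ranges were apart there for 5.35% of all genes.

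An unadjusted edgeR p under 0.05 was found for 1 gene in AD over Null and for 2 in RP over Null. The share of all genes at that threshold is not given here or below, so such counts are description only. Mnt read 21.2, 22.9, 24.5 and 21.1 CPM in AD, against 19.9, 21.1, 19.1 and 17.99 CPM in Null, a log2 fold change of 0.20 ± 0.081 (edgeR adjusted p = 0.553). Mxd3 read 88.9, 73.3, 83.4 and 78.1 CPM in RP, against 61.3, 67.1, 65.6 and 66.9 CPM in Null. Every RP library was above every Null library for Mxd3, with a log2 fold change of 0.31 ± 0.0891 (edgeR adjusted p = 0.631). Ranges were apart in this way for 1 of the 10 genes and for 4.14% of all genes in RP over Null. The other gene for RP over Null was Mycn, at 0.51 ± 0.228 (edgeR adjusted p = 0.948).

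Set against each other, AD and RP differed in 0 of the 10 genes, as in 0% of all genes, and DESeq2 also called 0 of the 10. Mxd3 alone had an unadjusted edgeR p under 0.05 there, at 66.6, 67.0, 67.8 and 70.1 CPM in AD and 73.3 to 88.9 CPM in RP without overlap, as for 7.62% of all genes (log2 fold change -0.25 ± 0.0891, edgeR adjusted p = 0.644).

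Against Het, both mutants had higher Myc and lower Mxd1, Mxd4 and Mxi1. For AD over Het, 4 of the 10 genes passed, where 14% of all genes passed. Myc was higher by a log2 fold change of 0.97 ± 0.173 (edgeR adjusted p = 0.00117), at 34.4 to 42.6 CPM in AD and 17.5 to 22.2 CPM in Het. Mxd1 was at -0.53 ± 0.12 (edgeR adjusted p = 0.00628), Mxd4 at -0.29 ± 0.073 (edgeR adjusted p = 0.0125) and Mxi1 at -0.29 ± 0.0713 (edgeR adjusted p = 0.0103). Of these, Myc and Mxi1 had ranges that did not overlap, as had 18.4% of all genes, and Mga, called by DESeq2 and not by edgeR, also had ranges apart, at 343.3 to 358.8 CPM in AD and 317.7 to 328.8 CPM in Het. Over 12 alternatives Mxd1 lay at -0.6798 to -0.4689. Mxd3 did not pass with all libraries but passed without Het-631 (0.202 ± 0.0683, edgeR adjusted p = 0.0417).

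For RP over Het, 5 of the 10 genes passed, where 18.7% of all genes passed. Myc was at 1.17 ± 0.174 (edgeR adjusted p = 0.000193), Mxd1 at -0.57 ± 0.12 (edgeR adjusted p = 0.0029), Mxd4 at -0.37 ± 0.073 (edgeR adjusted p = 0.0015) and Mxi1 at -0.33 ± 0.0713 (edgeR adjusted p = 0.00311). Over 12 alternatives Mxd1 lay at -0.7197 to -0.5052. Mxd3 was higher, at 0.33 ± 0.0892 (edgeR adjusted p = 0.0135), but this call was lost when Het-594, Het-595, Het-603 or RP-649 was left out, with log2 values of 0.2996, 0.3066, 0.2384 and 0.2714 for Mxd3.

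Genes that act with the network or are known to answer to it were read from fixed lists. These lists were chosen with earlier results of these data known, so their counts are not independent evidence. Of 35 genes known as MYC-activated, 28 were lower and 1 was higher in irradiated Het than in Null. All genes tested there were lower in 9.38% and higher in 9.79% of cases. The list's median log2 fold change was -0.777, against -0.0054 for all genes tested. Without Null-604 the counts were 28 lower and 2 higher with a median of -0.572, and without Het-631 they were 26 lower and 1 higher with a median of -0.695. For AD over Null and RP over Null, 0 of the 35 passed, and the medians were -0.27 and -0.092, against -0.008 and -0.017 for all genes. Both medians use the Null group with Null-604 and were not repeated without it. For AD over Het 23 were higher and 1 lower (median 0.515), where 14% of all genes passed and their median was 0.015. Without Het-631 the counts for AD over Het were 19 higher and 0 lower, with a median of 0.461.

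The largest falls were in Bcat1, the branched-chain aminotransferase (-2.49 ± 0.315, edgeR adjusted p = 3.3e-05), and Srm, spermidine synthase (-1.58 ± 0.281, edgeR adjusted p = 0.000942). Srm read 9.46, 8.03, 8.03 and 5.70 CPM in irradiated Het, against 16.2, 44.5, 16.4 and 16.8 CPM in irradiated Null, and the high value belonged to Null-604, the library with the highest Myc. Bcat1 read 1.57 to 2.51 CPM in Het and 7.02 to 21.6 CPM in Null, with the highest again in Null-604. Without Null-604 Bcat1 was at -1.966 ± 0.177 (edgeR adjusted p = 4.3e-07) and Srm at -1.075 ± 0.127 (edgeR adjusted p = 1.16e-05). Dkc1, the pseudouridine synthase of small nucleolar RNPs (-1.33 ± 0.194, edgeR adjusted p = 0.000191), and Gnl3, nucleostemin (-1.31 ± 0.154, edgeR adjusted p = 1.44e-05), followed. Tert, the catalytic subunit of telomerase, went the other way, at 0.86 ± 0.25 (edgeR adjusted p = 0.0229).

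Of 9 genes that MYC is known to repress, 4 were higher in irradiated Het than in Null and 0 lower (median 0.161). Of all genes tested there, 9.79% were higher and 9.38% lower. They were Cdkn1a (3.55 ± 0.115), Gadd45g (1.39 ± 0.252), Gadd45a (0.62 ± 0.104) and Cdkn1b (0.24 ± 0.0737), and Cdkn1a and Gadd45a are textbook p53 targets as well, and Cdkn1b was higher with overlapping ranges. In the parallel MLX branch, which senses glucose and shares the network's DNA site, 2 of 5 were higher and 1 lower. Txnip, an inhibitor of glucose uptake, read 419.3, 440.2, 410.4 and 407.9 CPM in Het, against no more than 285.1 CPM in any Null library (log2 fold change 0.75 ± 0.0814, edgeR adjusted p = 3.3e-06). Arrdc4, its close relative, was at 0.52 ± 0.124 (edgeR adjusted p = 0.00621) and Mlx itself at -0.28 ± 0.0813 (edgeR adjusted p = 0.0208).

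Of 15 MYC cofactors and turnover factors, 5 were lower in irradiated Het than in Null, led by the ATPase Ruvbl1 (-0.63 ± 0.0944), and those higher included the scaffold Trrap (0.28 ± 0.0702). Of 8 genes of the SIN3 corepressor, through which MXD proteins act, 1 was higher (Sin3b, 0.21 ± 0.0569) and 4 lower, led by the histone-binding Rbbp7 (-0.66 ± 0.121). Of 9 genes of the MGA complex PRC1.6, 0 were higher and 6 lower, led by Pcgf6 (-0.55 ± 0.112) and E2f6 (-0.49 ± 0.0821). All genes tested in the same comparison were higher in 9.79% and lower in 9.38% of cases. The thymic epithelial and cycling markers given above differed between the same libraries, and their part in all of these lists was not tested. No gene of these lists passed for AD or RP over Null in edgeR.

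Irradiated thymus was also set against basal thymus of the same genotype. In Het, 5 of the 10 genes passed, where 16.8% of all genes passed, and they again included Myc, lower, and Mxd1, Mxd4 and Mxi1, higher. Irradiated and basal libraries came from different mice, and differences between the 2 sets of libraries other than irradiation cannot be told apart from it. The irradiated Het libraries are those already set against Null above.

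Myc read 17.5 to 22.2 CPM in irradiated Het thymus, against 48.2, 38.6 and 43.5 CPM in basal Het thymus (Het-703, Het-697, Het-855), with no overlap, as for 24.8% of all genes. Its log2 fold change was -1.13 ± 0.169 (edgeR adjusted p = 5.76e-05). Mxi1 stood at 51.5 to 59.4 CPM in irradiated Het, against 36.5, 37.1 and 32.5 CPM in basal Het, also without overlap (0.65 ± 0.0759, edgeR adjusted p = 9.98e-07). Ranges were apart for 4 of the 10 genes. Max was lower, at 45.6 to 55.0 CPM irradiated and 55.3 to 62.4 CPM basal. Mga was lower, at 317.7 to 328.8 CPM irradiated and 347.0 to 353.7 CPM basal. Max and Mga did not pass in edgeR, but DESeq2 called Mga (-0.125 ± 0.0383, DESeq2 adjusted p = 0.00862). Mxd1 (0.55 ± 0.121, edgeR adjusted p = 0.00238) and Mxd4 (0.36 ± 0.0797, edgeR adjusted p = 0.00252) were higher with overlapping ranges, since Het-631 reached the basal values of 48.7 to 57.4 CPM and 226.0 to 270.0 CPM. Over 10 alternatives Mxd1 lay at 0.4727 to 0.7009. Mxd3 was at 0.34 ± 0.102 (edgeR adjusted p = 0.0204), a call lost without Het-631 (0.2267, edgeR adjusted p = 0.0763) and without the basal library Het-703 or Het-855 (0.341 and 0.2942).

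In AD, 1 of the 10 genes passed, where 0.546% of all genes passed. It was Mxi1, at 43.4, 43.9, 48.1 and 45.8 CPM in irradiated AD, against 36.0, 35.1 and 33.4 CPM in basal AD (AD-702, AD-700, AD-701). The ranges were apart, as for 14.8% of all genes, and the log2 fold change was 0.38 ± 0.0755 (edgeR adjusted p = 0.0137). The call for Mxi1 was lost without the irradiated library AD-726 (0.3505, edgeR adjusted p = 0.0589) or the basal library AD-700 or AD-701 (0.3895 and 0.3504). Mxd3 in AD had ranges apart, 66.6 to 70.1 CPM irradiated and 47.1 to 60.6 CPM basal, at 0.37 ± 0.102 (edgeR adjusted p = 0.115), and DESeq2 called it. Myc in AD was at -0.08 ± 0.168 (edgeR adjusted p = 0.877).

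In Null, 0 of the 10 genes passed in edgeR and in DESeq2, where 0.131% of all genes passed in edgeR, and 2 had an unadjusted p under 0.05. Ranges were apart for 3 of the 10 genes and for 15.9% of all genes. Mxi1 was again higher, at 40.3 to 42.7 CPM in irradiated Null and 32.0 and 34.3 CPM in basal Null (Null-859, Null-923), with a log2 fold change of 0.31 ± 0.0862 (edgeR adjusted p = 0.245). Mycn, the other gene with an unadjusted p under 0.05, was lower, at 0.927 to 2.02 CPM irradiated and 2.04 to 2.52 CPM basal (-0.62 ± 0.255, edgeR adjusted p = 0.6). Mxd4 was also lower, at 228.3 to 252.0 CPM irradiated and 252.7 to 252.8 CPM basal. Myc in Null was at 0.11 ± 0.19 (edgeR adjusted p = 0.95), and without Null-604 its direction turned, at -0.165 ± 0.119 (edgeR adjusted p = 0.706).

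**Figure D3:**
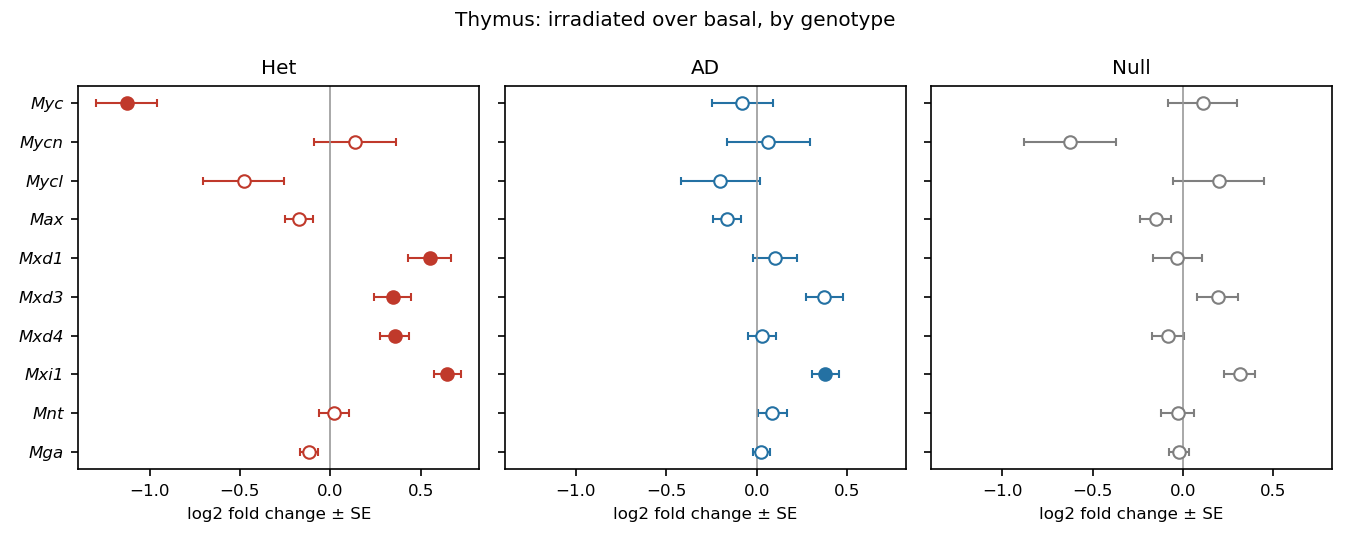
Log2 fold change with SE (x axis) of irradiated over basal thymus for the 10 network genes (y axis) in Het (n = 4 and 3), AD (4 and 3) and Null (4 and 2). Filled points passed the edgeR test. Myc is at -1.13 in Het, -0.08 in AD and 0.11 in Null (-0.165 without Null-604), while Mxi1 is above 0 in all 3, at 0.65, 0.38 and 0.31.

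The difference between these responses was tested as an interaction. The response of Het minus that of Null was called for 2 of the 10 genes, where 3.44% of all genes were called. It was -1.23 ± 0.258 for Myc (edgeR adjusted p = 0.00704) and 0.44 ± 0.119 for Mxd4 (edgeR adjusted p = 0.0388). The Myc call was lost when the basal library Null-859 was left out (-1.145, edgeR adjusted p = 0.075), which leaves 1 basal Null library that is taken to vary like the other groups. Without Null-604 it was -0.96 ± 0.158 (edgeR adjusted p = 0.000405). The Mxd4 call was lost when any of 9 libraries was left out in turn, with log2 values of 0.3902 to 0.4402 for Mxd4. Mxd1 (0.58 ± 0.181, edgeR adjusted p = 0.0821) and Mxi1 (0.33 ± 0.113, edgeR adjusted p = 0.117) did not pass, so a larger rise of Mxi1 in Het than in Null was not shown. Without Het-631, Mxd1 passed (0.733 ± 0.109, edgeR adjusted p = 6.68e-05).

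The response of AD minus that of Het was called for 1 of the 10 genes, Myc (1.05 ± 0.24, edgeR adjusted p = 0.013), where 3.98% of all genes were called. The response of AD minus that of Null was called for 0 of the 10 by edgeR and by DESeq2, as for 0% of all genes in edgeR, and for 0 of the 10 at an unadjusted p under 0.05. Among the 35 MYC-activated genes, 28 were lower and 1 higher in irradiated than in basal Het thymus (median -0.692), 0 were called in AD (median -0.206) and 0 in Null (median -0.055). Of all genes, 16.8% were called in Het, 0.546% in AD and 0.131% in Null, with medians of 0.02, 0.009 and 0.025. The response of Het minus that of Null was lower for 15 of the 35 and higher for 0, where 3.44% of all genes were called. Neither the Null median nor this count was repeated without Null-604. Srm read 44.48 CPM in Null-604 and 16.21, 16.41 and 16.8 CPM in Null-593, Null-856 and Null-857, against 22.42 and 27.75 CPM in basal Null. Ncl read 275 CPM in Null-604 and 233.4, 197.2 and 176.3 CPM in Null-593, Null-856 and Null-857, against 229.3 and 185.2 CPM in basal Null.

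None of the 10 genes separated the genotypes in basal thymus. In basal thymus 0 of the 10 genes were called for Het over Null and for AD over Null, where 0.0676% of all genes were called in each, and 0 for AD over Het, where 0% were called. DESeq2 called 0 of the 10 in each, and 0 had an unadjusted edgeR p under 0.05. Over the whole table the counts depended on the method: edgeR called 15 genes for Het over Null and 15 for AD over Null, against 107 and 168 with DESeq2 and 353 and 403 with no filter on low counts. Myc read 48.2, 38.6 and 43.5 CPM in basal Het, 43.2, 43.2 and 37.7 CPM in basal AD, and 41.8 and 47.4 CPM in basal Null. Its log2 fold change was -0.03 ± 0.102 for Het over Null and -0.11 ± 0.102 for AD over Null. Mxd1 was at 48.7 to 57.4 CPM in Het and 46.5 to 55.4 CPM in AD, against 52.3 and 57.8 CPM in Null. The widest estimates were those of the low genes Mycn and Mycl, with standard errors of 0.236 and 0.217 for Het over Null.

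AD was also set against Null in basal intestine, liver and pancreas, and 0 of the network genes passed in any of the 3 tissues, with DESeq2 as with edgeR. The shares of all genes that passed were 0.015% in intestine, 0.267% in liver and 0.0548% in pancreas. In pancreas 9 of the 10 were tested, since Mycl, at 0.198 to 0.337 CPM in AD and 0.189 to 0.985 CPM in Null, fell below the filter. A test of whether AD over Null varied among the 4 tissues also called 0 of the 10, where 0.172% of all genes were called, and 0 had an unadjusted p under 0.05.

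In intestine 3 genes had an unadjusted edgeR p under 0.05 and ranges that were apart, and ranges were apart for 12.2% of all genes. Mxd1, by far the most abundant of the 10 in this tissue, read 519.4, 649.6 and 559.3 CPM in AD (AD-702, AD-700, AD-701), against 444.4, 250.9 and 457.0 CPM in Null (Null-859, Null-923, Null-1087). Its log2 fold change was 0.59 ± 0.216 (edgeR adjusted p = 0.787), and for Mxd1 without Null-923 it was 0.364 ± 0.154. Null-923 also had the lowest intestinal epithelial markers, 5940 CPM against 7180 to 9990 CPM in the other 5, and the second highest acinar markers. Mycl read 12.6, 12.5 and 12.3 CPM in AD, against 13.5, 15.3 and 17.0 CPM in Null (-0.29 ± 0.114, edgeR adjusted p = 0.799). Mycn was at 0.889 to 1.23 CPM in AD and 1.5 to 2.12 CPM in Null (-0.66 ± 0.261, edgeR adjusted p = 0.799). Without AD-702 Mycl was at -0.289 and Mycn at -0.736, and without Null-923 Mycl was at -0.279 and Mycn at -0.512, none of them called.

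In liver Myc was dominated by 1 library. It read 25.5 CPM in AD-702 and 2.39 and 2.72 CPM in AD-700 and AD-701, against 2.18, 7.36 and 6.76 CPM in Null-859, Null-923 and Null-1087. With AD-702 the log2 fold change was 0.93 ± 1.21 (edgeR adjusted p = 0.885), and without it Myc was at -1.079 ± 0.506 (edgeR adjusted p = 0.536), so the direction turned on that library. Mycl read 14.1, 10.1 and 10.5 CPM in AD, against 7.95, 9.67 and 3.54 CPM in Null. Its ranges were apart, as for 15.5% of all genes (0.73 ± 0.345, edgeR adjusted p = 0.572), and it was called when the filter on low counts was dropped (0.715, edgeR adjusted p = 0.0225). Without that filter 454 genes of the whole table were called in liver, against 42 with it. Mga read 74.5, 79.0 and 74.7 CPM in AD, against 67.6, 65.2 and 50.2 CPM in Null (0.33 ± 0.123, edgeR adjusted p = 0.437).

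In pancreas Myc read 18.6, 31.7 and 32.2 CPM in AD, against 24.4, 23.3 and 15.8 CPM in Null, with overlap (0.36 ± 0.224, edgeR adjusted p = 0.72). Mxi1 was the 1 gene with ranges apart there, where 13.4% of all genes had them, at 9.37 to 10.1 CPM in AD and 6.66 to 9.25 CPM in Null (0.23 ± 0.163, edgeR adjusted p = 0.761).

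The largest differences within the network were between tissues. Of the 10 genes, 8 passed for intestine over thymus, where 75% of all genes passed, 8 for liver over thymus (79.3% of all genes) and 7 for pancreas over thymus (70.4%), so these counts are near the background. For intestine over liver 6 passed (70.5% of all genes), for intestine over pancreas 9 (64.3%) and for liver over pancreas 8 (65.3%). The makeup of the network is given as each gene's share of the network's CPM per kb within a library, which does not depend on scaling between tissues.

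In intestine Mxd1 alone took 53% of the network in AD (52 to 54.3) and 44.5% in Null (38.2 to 47.7), against 2.76 to 8.07% in single libraries of basal liver, pancreas and AD or Null thymus. Max, at 22.1% in AD and 22% in Null, also had its largest share there, against 8.98 to 15.1% in the other tissues. Mxd1 is known from differentiated gut epithelium, and it was higher in intestine than in thymus by a log2 fold change of 3.67 ± 0.188 (edgeR adjusted p = 9.37e-14), than in liver by 5.37 ± 0.185 (edgeR adjusted p = 7.82e-17) and than in pancreas by 3.91 ± 0.173 (edgeR adjusted p = 1.14e-14).

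Mxd3 had its largest share in thymus. Mxd3 took 17.8% of the network in AD thymus and 18.9% in Null thymus, and 0.406 to 3.68% in single libraries of the other tissues. The largest mean share in thymus was that of Mxd4, 23.7% in AD and 23.3% in Null. Mxd3 was lower in intestine than in thymus by -3.66 ± 0.208 (log2, edgeR adjusted p = 7.01e-14), in liver by -4.50 ± 0.229 (edgeR adjusted p = 5.14e-15) and in pancreas by -4.29 ± 0.245 (edgeR adjusted p = 8.13e-14). Within each tissue's own scaling, Mxd3 was at most 3.69 CPM in any intestine, liver or pancreas library, against 46.9 to 88.9 CPM in thymus libraries.

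In liver the largest mean share was that of Mxd4, 29.9% in AD and 32.3% in Null, and Mycl took 10.3% in AD (9.91 to 10.7) and 7.89% in Null (3.87 to 10.6), against 0.161 to 4.09% in single libraries of the other tissues, so that the lowest liver Null library lay within the intestine range. Mycl was higher in liver than in thymus by 2.17 ± 0.237 (edgeR adjusted p = 1.34e-08) and than in pancreas by 3.86 ± 0.296 (edgeR adjusted p = 3.99e-11). Between intestine and liver Mycl was not called (-0.15 ± 0.205, edgeR adjusted p = 0.535). Myc was not called there either (0.14 ± 0.461, edgeR adjusted p = 0.801), but without the liver library AD-702 Myc was higher in intestine, at 1.125 ± 0.252 (edgeR adjusted p = 0.000715).

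Pancreas was the only tissue of the 4 in which Myc took the largest mean share, 35.3% in AD (28.9 to 38.7) and 30.6% in Null (23.5 to 34.2). In thymus it took 12.3% in AD and 12.8% in Null, in intestine 3.18% in AD and 4.83% in Null, and in liver 12.1% in AD (3.49 to 28.9) and 8.92% in Null. On the scale that compares tissues, Myc was at 49.6 CPM in pancreas and 22.0 CPM in thymus, a log2 fold change of 1.23 ± 0.481 (edgeR adjusted p = 0.0321). The Myc call was kept in 6 of 15 alternatives and was lost with no filter on low counts (1.1599) and without pancreas AD-700, AD-701, Null-859 or Null-923 or thymus Null-859, Null-923 or AD-701, at 1.1595 to 1.2626. The direction depends on the scaling: with library size alone, Myc in pancreas over thymus was at -0.8215 (edgeR adjusted p = 0.108), and the median of all genes in that comparison moved to -2.221, against -0.224 with TMM scaling. Higher calls were then 10.5% of all calls, against 44.7%. Mycn also turned, at 1.83 ± 0.41 with TMM and -0.2054 with library size alone.

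**Figure D4:**
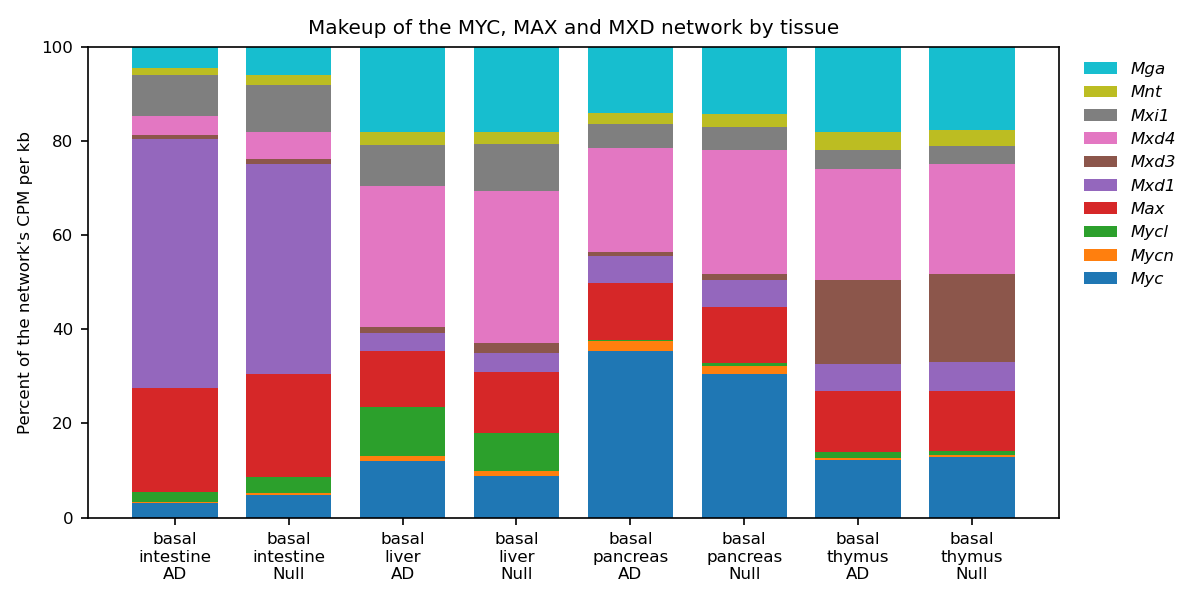
Mean share of each gene in the network's CPM per kb (y axis, percent, stacked to 100) in basal AD and Null libraries of 4 tissues (x axis, n = 3 per group, 2 for Null thymus). Mxd1 fills 53 and 44.5% in intestine, Myc 35.3 and 30.6% in pancreas, and Mxd3 17.8 and 18.9% in thymus, each for AD and Null.

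The balance of activators and repressors was expressed as the summed CPM per kb of Myc, Mycn and Mycl over that of Mxd1, Mxd3, Mxd4 and Mxi1 in each library. In thymus the ratio was 0.109 in irradiated Het (0.0959 to 0.122), 0.222 in irradiated AD (0.191 to 0.241), 0.238 in irradiated RP (0.204 to 0.291) and 0.279 in irradiated Null (0.226 to 0.406). The irradiated Het libraries lay below all other thymus libraries, since basal thymus had 0.234 or more in Het, 0.253 or more in AD and 0.268 or more in Null. In the other tissues the ratio was 0.0816 in AD and 0.141 in Null intestine, 0.591 in AD and 0.378 in Null liver, and 1.15 in AD and 0.887 in Null pancreas. The intestine Null mean was raised by Null-923, at 0.213, against 0.0994 in Null-859 and 0.112 in Null-1087. The liver AD mean again rests on AD-702, at 1.14, where the lowest liver AD library was at 0.311. RNA levels do not give the amounts of the proteins.

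**Figure D5:**
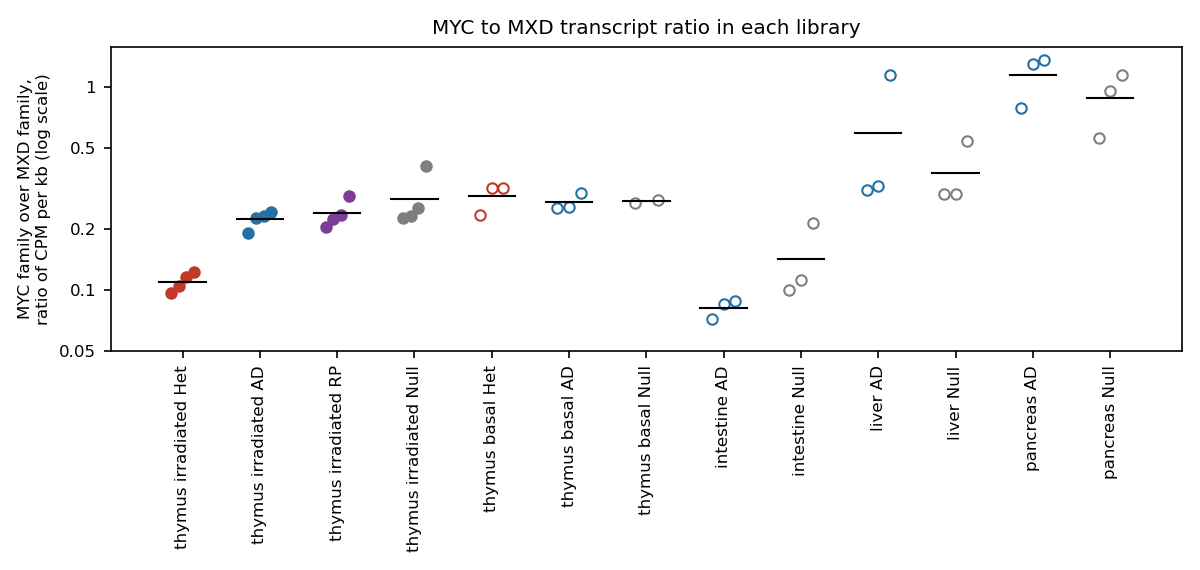
Ratio of the MYC family (Myc, Mycn, Mycl) to the MXD family (Mxd1, Mxd3, Mxd4, Mxi1) in CPM per kb (y axis, log scale) in each library of the 13 groups (x axis). Points are libraries, filled where irradiated, and lines are group means. Irradiated Het thymus (mean 0.109) lies below every other thymus group, and pancreas (1.15 in AD, 0.887 in Null) lies highest.

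Some genes followed network members over the 13 group means. The closest to Myc was Vars, a valyl-tRNA synthetase (Pearson r = 0.988 of log2 CPM), the closest to Mxd3 was Dclk2 (0.997), and the closest to Mga was Smg6, a factor of nonsense-mediated decay (0.996). Mxd1 was followed most closely by Dennd1b (0.99), which also stood among the 3 closest to Max (0.986), and Mxi1 by Mkrn1 (0.974), the lowest of the leading values. For Mycl the leading gene was Paqr7 (0.987), for Max Slc37a1 (0.991), for Mxd4 Pitpnm2 (0.986) and for Mnt Gmip (0.988), while Mycn was below the level set for this comparison. The points are 13 group means of 4 tissues, many from the same mice, so that differences between tissues carry these values and they describe likeness only.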

How the data were processed

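Bulk RNA sequencing of mouse tissues was deposited by the authors as 1 table of raw read counts per gene and library. The submitters' processing notes name STAR 2.6.0b, DESeq2 and the build GRCm38. The counting tool, its annotation and strand setting are not given in the sources used here. Of 49585 Ensembl identifiers, 49326 matched GENCODE M21 symbols. For 8 libraries the column name gave no tissue, and they were matched to basal thymus by elimination. Their thymocyte markers summed to 6970 to 7790 CPM.

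Counts were tested with edgeR 4.0.16 (limma 3.58.1, R 4.3.3) by the quasi-likelihood test with robust dispersions, TMM scaling and edgeR's filter on low counts, with Benjamini-Hochberg adjustment over all genes tested and a threshold of 0.05. Irradiated genotypes, basal thymus and each basal tissue were fitted apart, irradiation over all thymus groups, and tissues over basal AD and Null. Levels are CPM scaled within a tissue. CPM per kb divides by the exon length of a gene over all its annotated transcripts, with overlaps merged. The order of genes, the shares and the ratios depend on this length, which can differ from that of the transcripts present. A prior count of 2 was used for log2 CPM. The fits were tested on simulated data. Alternatives were RLE scaling, no filter, DESeq2 1.42.0, the 2 compared groups only, the mouse as a block, and each library left out. Library-size scaling of tissues and the repeats of the MYC-target counts were chosen after seeing the data.

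The text names all 10 genes, called MLX-branch genes, up to 4 called genes per direction from each list, and the closest genes over 13 group means among 13102. The members and lists were chosen with earlier results of these data known. Numbers shared by tissues mark the same mouse. Over 33 pairs of tissues of a mouse, deviations from the group means correlated with a median r of 0.13 (-0.00907 to 0.444). The result for 1 gene of the cofactor list is not reported here.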

Additional observations from a re-analysis of the deposited data

Results flagged for a closer look

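In 3 of 40 sets of 4 libraries tested, 1 library lay far from the other 3 by Dixon's gap test, and chance alone flags about 1 in 20 such sets. Myc in irradiated Null-604 was at 6.19 log2 CPM, with a gap of 0.862 of the range. Its thymocyte markers, 5720 CPM, were the lowest of the thymus libraries, against 7080 to 7440 CPM in the other 3 Null libraries. Myc in irradiated RP-653 was at 5.75 log2 CPM, with a gap of 0.935 of the range, and no call for Myc in RP depended on it. Its thymocyte markers, 6650 CPM, were the lowest of RP, against 7830 to 8020 CPM in the other 3. The part of these markers in the Myc values was not tested. Max in irradiated Het-631 was at 5.51 log2 CPM, below the other 3 Het libraries, with a gap of 0.833 of the range.

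Responses to irradiation differed between genotypes by an interaction test in 3 cases. For Myc the response of Het minus that of Null was -1.23, and that of AD minus that of Het was 1.05, on the log2 scale. For Mxd4 the response of Het minus that of Null was 0.44.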

How the results depend on the processing

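Over the network genes called, 957 of 1031 values under alternatives kept direction and call, 68 lost the call and 6 changed sign. All 6 sign changes came with library-size scaling of tissues: in pancreas over thymus Myc was at -0.8215 and Mycn at -0.2054, in intestine over pancreas Mxd4 at 0.021 and Mga at 0.8206, and in liver over pancreas Mxd4 at 0.2526 and Mga at 0.2306. The cause was not tested. The count for AD over Null in liver was 1 (Mycl) with no filter on low counts, and that for irradiated over basal AD was 2 with DESeq2. Leaving out 1 library gave 0 to 1 genes for irradiated over basal AD, 0 to 3 for the response of Het minus that of Null, where 0 came without basal Null-859 and 3 without Het-631, and 1 to 3 for the response of AD minus that of Het, where 3 (Myc, Mxd1 and Mxd4) came without Het-631. DESeq2 called 82 genes of the whole table for AD over Null and 30 for RP over Null in irradiated thymus, against 6 and 7 by edgeR.

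With the mouse as a block across tissues, Myc for intestine over thymus lost its call (-1.1058, edgeR adjusted p = 0.0649), a call also lost under 11 other alternatives. Mnt for intestine over thymus (-0.388, edgeR adjusted p = 0.0347) and, for pancreas over thymus, Mxd1 (-0.353, edgeR adjusted p = 0.015) and Mxd4 (-0.181, edgeR adjusted p = 0.0361) gained one. The block changed no other call. DESeq2 gave no adjusted p for Myc in 5 tissue comparisons. Low counts limit Mycn and Mycl, and 2 basal Null thymus libraries limit each response set against Null.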
